A study of Bos taurus with 4 samples.

Results

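Leukotriene receptor and synthesis genes were followed here in sperm RNA of Murrah buffalo (Bubalus bubalis) bulls of high and low fertility. All non-control probes carrying one of 8 gene names were taken: the receptors LTB4R, LTB4R2, CYSLTR1 and CYSLTR2, and the synthesis genes ALOX5, ALOX5AP, LTA4H and LTC4S. They came to 15 probes on 16 spots, of the 51282 sample probes and 32429 gene names on the array. LTB4R was selected on its low-fertile minus high-fertile difference on these same arrays, so its values are given as a description, with no test. The set was built around it. RNA came from Percoll-selected spermatozoa of breeding bulls rated by field conception rate. The high-fertile group was 2 pools and the low-fertile group 2 pools, each of equal amounts of RNA from 2 bulls. The bulls' ages are not in the labels, and the sources do not say which bulls were in which pool. A pool is therefore the replicate, and what varied between single bulls was not measured.

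Leukotrienes are lipid mediators made from arachidonic acid, best known from neutrophils, mast cells and other cells of inflammation. 5-Lipoxygenase (ALOX5), helped by its activating protein (ALOX5AP), makes the unstable leukotriene A4. Leukotriene A4 hydrolase (LTA4H) turns this into leukotriene B4, and leukotriene C4 synthase (LTC4S) joins it to glutathione to give the cysteinyl leukotrienes. Leukotriene B4 is read by a high-affinity receptor (LTB4R, also BLT1) and a low-affinity receptor (LTB4R2, also BLT2), and the cysteinyl leukotrienes by CYSLTR1 and CYSLTR2. All of these receptors couple to G proteins.

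The probes were 60 bases long and were designed on cattle transcripts, so their match to buffalo RNA was not tested. Positions are those the array files give on Btau_3.1, and exon borders or coding limits are not given there. Sequences are shown for the receptor and enzyme probes on which the values below rest, because 2 of the genes are close neighbours and a pair of LTA4H probes overlap. The LTB4R probe lay at chr10:21133819-21133878 on the minus strand, from base 396 of its transcript, and the LTB4R2 probe at chr10:21137964-21138023 on the minus strand, from base 1162. Capitals in these lines mark the longest run they shared, 5 bases.
LTB4R: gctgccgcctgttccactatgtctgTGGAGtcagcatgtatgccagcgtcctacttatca
LTB4R2: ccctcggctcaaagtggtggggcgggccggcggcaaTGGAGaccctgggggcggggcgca
A further probe carried no gene name but a description naming an LTB4R2-like transcript, with no position in the files. It is no member, and was singled out after its values were seen.
LTB4R2-like: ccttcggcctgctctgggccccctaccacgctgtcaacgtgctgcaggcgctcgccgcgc
GC content was 53.3% for the LTB4R probe, 76.7% for the LTB4R2 probe and 73.3% for the LTB4R2-like probe, where the median probe of the array had 45%.

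For CYSLTR2, ALOX5 and LTC4S, 1 probe each is shown whose values are discussed below. The CYSLTR2 probe covered chr12:17839001-17839060 on the plus strand. The probes of ALOX5, at chr28:44476777-44477155, and of LTC4S, at chr7:1496601-1496758, were both on the minus strand and spanned 379 and 158 genomic bases, more than their own length, so each crosses a gap in the alignment to the genome.
CYSLTR2: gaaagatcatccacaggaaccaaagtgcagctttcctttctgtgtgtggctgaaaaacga
ALOX5: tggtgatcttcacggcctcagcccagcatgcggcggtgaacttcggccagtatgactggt
LTC4S: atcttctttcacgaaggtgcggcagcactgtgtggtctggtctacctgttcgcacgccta
A pair of LTA4H probes, on the minus strand at chr5:64864674-64864733 and chr5:64862877-64864719, shared 46 bases, shown in capitals, and so were not independent readings of LTA4H.
LTA4H from base 289: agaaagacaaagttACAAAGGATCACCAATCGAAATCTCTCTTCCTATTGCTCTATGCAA
LTA4H from base 303: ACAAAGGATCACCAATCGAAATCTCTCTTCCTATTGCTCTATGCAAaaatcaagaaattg
Between probes of different genes of the set the longest shared run was 8 bases.

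Signals are the scanner software's background-subtracted intensities, and normalized signals are their log2 minus the 75th percentile of the array. The percentile lay between 32.7 and 37.1 in signal, lowest in low-fertile pool 2. This pool also had the fewest probes well above background, 25.4% of all probes, where the other 3 arrays had at least 45.3%. Each fertility group filled its own row of the slide, and row and group cannot be told apart. With 2 pools a group an exact two-sided permutation test cannot reach a p below 0.333, and 4 arrays give every value low precision. Of 18 sperm markers, PRM1, TNP1, ODF1 and CATSPER1 were well above background on all 4 arrays, while AKAP3, AKAP4, SMCP, SPEM1, PGK2 and LDHC were so on no array. PRM1, the protamine 1 gene of packed sperm chromatin, read 46.7 and 46.5 in high-fertile and 71.6 and 68.6 in low-fertile pools and rose by 0.67 (limma adjusted p = 0.0231), in the same direction as the leukotriene B4 receptors described below, and its part in their values was not tested. CATSPER1, a sperm calcium channel subunit, differed by 0.57 (limma adjusted p = 0.180), TNP1 by -0.05 (0.891) and ODF1 by -0.18 (0.429).

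Both leukotriene B4 receptors gave their higher signals in the low-fertile pools, and most probes of the other genes were not well above background on every array. By the scanner software's mark, 3 of the 15 probes were well above background on all 4 arrays, those of LTB4R and LTB4R2 and 1 of LTC4S, where 24.5% of all probes were so marked. On no array were 7 of the 15 well above background, against 42.7% of all probes. Both counts lie near those shares, so little is read from them. A second mark of the software, positive and significant signal, held on all 4 arrays for 11 of the 15 and on none for 1. The share of all probes with that second mark was not counted. Per array, high-fertile pools 1 and 2 had 5 and 7 of the 15 marked, and low-fertile pools 1 and 2 had 7 and 3. A probe was tested in limma when both arrays of at least 1 group were well above background, which held for 5 probes of 4 genes and for 41.0% of all probes. The plot of every probe on every array shows these levels.

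**Figure D1:**
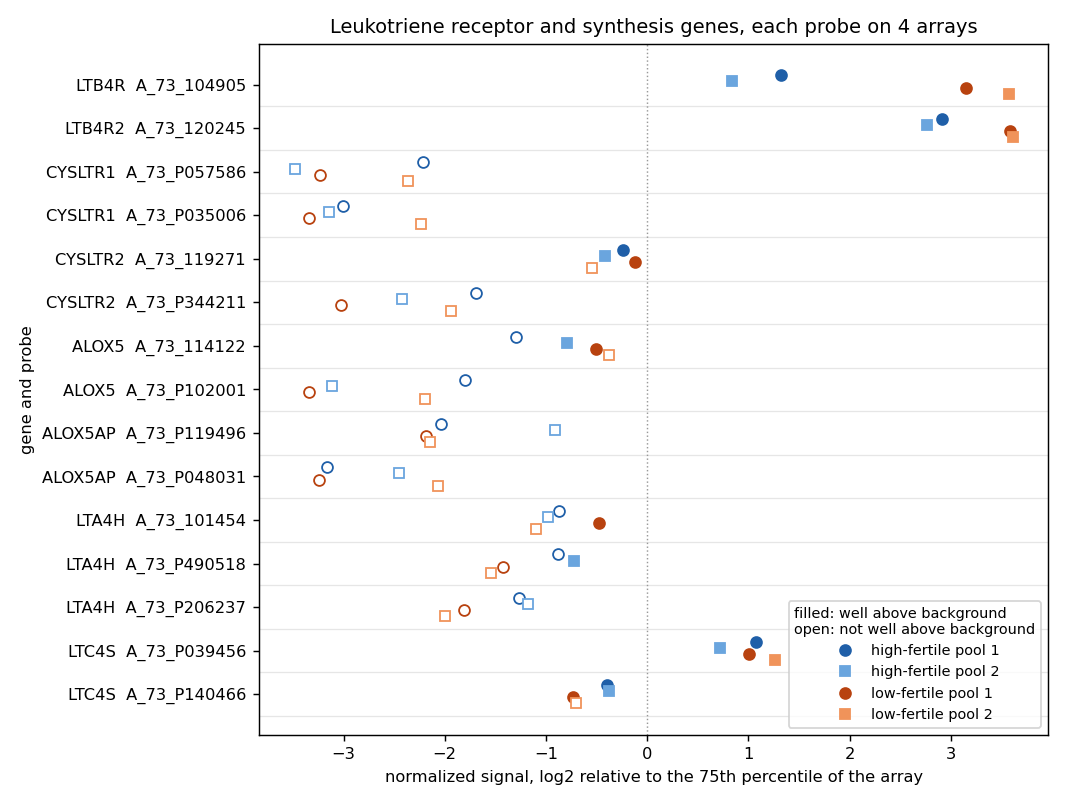
Normalized log2 signal (x axis, relative to the 75th percentile of the array) of each of the 15 probes (y axis) in the 2 high-fertile pools (blue) and 2 low-fertile pools (orange), with filled symbols where the probe was well above background. Only LTB4R, LTB4R2 and 1 LTC4S probe are filled on all 4 arrays, and for both leukotriene B4 receptors the low-fertile points lie to the right of the high-fertile points. Levels of different probes are not comparable.

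LTB4R had signals of 91.7 and 66.4 in high-fertile pools 1 and 2 and of 329 and 389 in low-fertile pools 1 and 2. Both low-fertile pools were above both high-fertile pools, and the probe was well above background on all 4 arrays. Mean normalized log2 signal was 1.08 ± 0.34 (SD, n = 2) in high-fertile and 3.36 ± 0.30 (SD, n = 2) in low-fertile pools. The difference was 2.28 on the log2 scale, a 4.87-fold higher level in low-fertile pools. In bulk RNA a different number of cells carrying a transcript and a different amount per cell cannot be told apart. By size of difference the probe stood at place 48 of the 21033 probes tested and at place 19 of the 12552 probes so marked on every array, between NFATC2 at 2.29 and PAX5 at 2.27 in the order of all tested probes.

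Its 2 spots, at separate places on the array, both showed the difference. The first read 90.9 and 68.6 in high-fertile and 276 and 287 in low-fertile pools, a log2 difference of 1.92. On the second, high-fertile pools read 92.6 and 64.3 and low-fertile pools 392 and 529, a difference of 2.65. Spots were therefore closest in the high-fertile pools and farthest apart in low-fertile pool 2. None of the 6 nearest spots of either was raised by over 2 log2 units on any array. With normexp background correction in place of the scanner software's the difference was 1.49, and with 1 pool left out it lay between 2.04 and 2.52.

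LTB4R2, the low-affinity receptor gene beside LTB4R, read 277 and 253 in high-fertile and 445 and 399 in low-fertile pools. Its 2 groups did not overlap. Mean normalized log2 signal rose from 2.84 ± 0.11 (SD, n = 2) to 3.60 ± 0.02 (SD, n = 2), a difference of 0.76 (standard error 0.146, 95% confidence interval 0.39 to 1.12, limma adjusted p = 0.0173) or 1.69-fold. It was the single probe called among the 4 tested probes of the 7 genes other than LTB4R, with 0 called lower; the fit over all 21033 probes called 9.22% higher and 17.6% lower. No more is read from 1 call in 4. LTB4R2 lost the call when high-fertile pool 1 was left out (adjusted p = 0.0601 in limma), when high-fertile pool 2 was (0.0960), when low-fertile pool 2 was (0.0537), with no filter on dim probes (0.200) and in the methods' t-test (0.102). Its difference under these settings stayed between 0.68 and 0.83.

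The LTB4R2-like probe did not show that difference. Its signals were 167 and 160 in high-fertile and 161 and 170 in low-fertile pools, and the groups overlapped. The log2 difference was 0.10 (standard error 0.162, 95% confidence interval -0.30 to 0.51, limma adjusted p = 0.660). Whether this probe and the LTB4R2 probe differ in response was not tested, and which transcript each binds in buffalo is not given in the sources used here. On one of its spots 2 of the 6 nearest spots were raised on an array, and without spots on such patches the difference of the LTB4R2-like probe was 0.15 (limma adjusted p = 0.560).

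**Figure D2:**
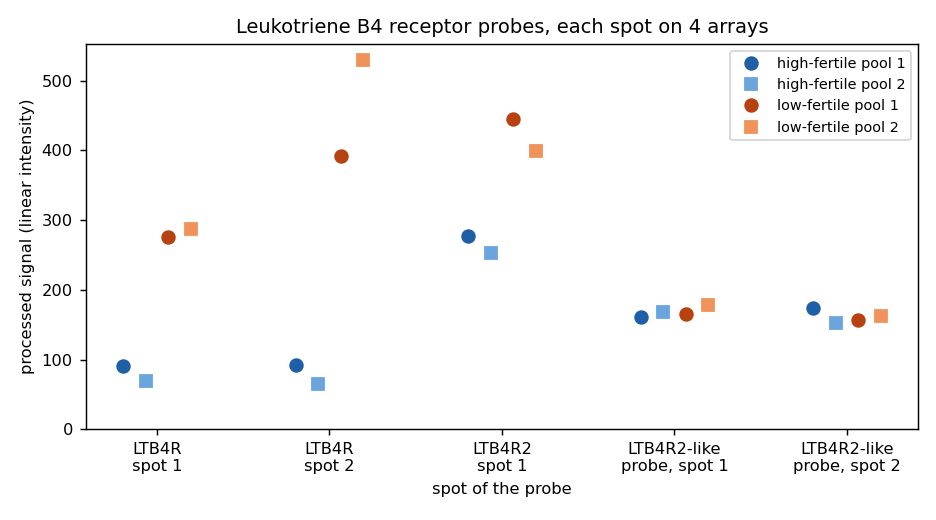
Processed signal (y axis, linear intensity from 0) of each spot (x axis) of the LTB4R, LTB4R2 and LTB4R2-like probes in 2 high-fertile pools (blue) and 2 low-fertile pools (orange). Both LTB4R spots read at most 92.6 in high-fertile and at least 276 in low-fertile pools, LTB4R2 rises from 253 and 277 to 399 and 445, and the LTB4R2-like spots overlap between groups.

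Genes next to LTB4R had differences from -0.08 to 0.76. LTB4R was selected for its difference, so nothing is read from their lying below its 2.28. In the RefSeq gene order of the cattle assembly ARS-UCD2.0, which is not the build of the array files, NFATC4, RIPK3 and ADCY4 lie on one side and LTB4R2, CIDEB and NOP9 on the other, and CIDEB overlaps LTB4R2. RIPK3, a kinase of necroptosis, read 28.6 and 26.0 in high-fertile and 36.7 and 39.1 in low-fertile pools, a log2 difference of 0.56 (limma adjusted p = 0.060). For NFATC4, a calcium-regulated transcription factor, the difference was 0.21 (limma adjusted p = 0.343). ADCY4, an adenylyl cyclase, differed by 0.02 (limma adjusted p = 0.938) and CIDEB, a lipid droplet protein, by -0.08 (limma adjusted p = 0.694). Of these neighbours LTB4R2 was the one that passed the test, and NOP9 had no probe under that name.

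Patterns closest to LTB4R over the 4 arrays, measured as distance in log2 after subtracting each probe's high-fertile mean, were those of FRAT1 (0.44), SLA2 (0.44), STAC3 (0.60), NEFH (0.67) and PRPH (0.67). FRAT1 read 44.7 and 38.2 in high-fertile and 219 and 175 in low-fertile pools. SLA2, an adaptor of antigen receptor signalling, read 145 and 117 against 502 and 489. Low-fertile minus high-fertile differences of the 5 ran from 1.84 to 2.33. They were picked for likeness in 4 values and are listed as a description.

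Of the cysteinyl leukotriene receptors, CYSLTR1 was well above background on no array, and CYSLTR2 was so on 3 arrays by 1 probe. CYSLTR2 was measured by its upstream probe at 31.1 and 27.8 in high-fertile and 34.1 and 22.5 in low-fertile pools, and the groups overlapped. That probe was well above background on 3 arrays and qualified through the high-fertile pair, low-fertile pool 2 being below the mark. Its mean log2 signal was -0.33 ± 0.12 (SD, n = 2) and -0.33 ± 0.30 (SD, n = 2), and the 95% confidence interval of the difference ran from -0.49 to 0.49 (limma adjusted p = 0.994). The second CYSLTR2 probe, at chr12:17841597-17841656, read 11.4 and 6.94 against 4.54 and 8.54 and was well above background on no array. CYSLTR1 had 2 probes, which read between 3.32 and 7.91 and between 3.65 and 6.94 over the 4 arrays. Neither was well above background on any array, so no level of CYSLTR1 was measured here.

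ALOX5 and ALOX5AP, which start the pathway, were not tested, since no probe of either was well above background on both arrays of a group. The ALOX5 probe from base 1708 read 15.0 and 21.5 in high-fertile and 26.2 and 25.2 in low-fertile pools and was well above background in high-fertile pool 2 and low-fertile pool 1. Its groups did not overlap, with a log2 difference of 0.60. The other ALOX5 probe, at chr28:44486357-44486416, read between 3.66 and 10.5, with no array above the mark and a difference of -0.31. For ALOX5AP both probes were below the mark on all 4 arrays. One read 8.92 and 19.7 against 8.12 and 7.40, the other 4.10 and 6.77 against 3.91 and 7.79. Those ALOX5AP probes were placed on opposite strands, chr12:29921582-29921641 on the plus and chr12:29923512-29923571 on the minus strand, and the first was designed on an accession that matched no RefSeq symbol.

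LTA4H, the enzyme that makes leukotriene B4, was likewise untested. The overlapping probes read 20.0 and 22.5 against 13.8 and 11.2, and 15.3 and 16.4 against 10.5 and 8.19. In both the high-fertile pools were above the low-fertile pools, with log2 differences of -0.69 and -0.68. The third probe, at chr5:64839368-64839427, read 20.1 and 18.8 in high-fertile and 26.7 and 15.3 in low-fertile pools, and its groups overlapped at a difference of 0.14. Each of the 3 was well above background on at most 1 array. Over all 10 untested probes of the set, 5 were higher and 5 lower in low-fertile pools, from -0.69 to 0.60.

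LTC4S, which makes leukotriene C4, was tested by both probes, which differed in sign and did not pass. The probe at chr7:1496113-1496172, from base 544, was well above background on all arrays, at 77.5 and 61.1 in high-fertile and 74.4 and 78.4 in low-fertile pools. These groups overlapped, with means of 0.90 ± 0.25 and 1.13 ± 0.18 (SD, n = 2 each) and a log2 difference of 0.24 (95% confidence interval -0.24 to 0.72, limma adjusted p = 0.396). The probe from base 286 read 27.9 and 28.6 against 22.3 and 20.0, without overlap. Its means were -0.39 ± 0.01 and -0.72 ± 0.02 (SD, n = 2 each), and the difference of -0.33 did not pass the test (95% confidence interval -0.68 to 0.01, limma adjusted p = 0.131). It too qualified through the high-fertile pair, with low-fertile pool 2 below the mark. Leaving out LTB4R, which was selected, the median difference of the 4 other tested probes was 0.12, beside -0.0047 over all tested probes. They include 2 that passed the filter through the high-fertile pair alone, so the median is a description.

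The wider eicosanoid pathway was read from 5 gene lists, each gene by its probe with the highest mean signal. Of 75 listed genes 62 were on the array by name and 46 were tested. In low-fertile pools 5 rose, 6 fell and 35 did not pass the test, where 9.6% of all 16549 tested genes were called higher and 16.3% lower. These shares also stand beside the counts of each list below. Of the 6 that fell, 5 had been admitted by the high-fertile pair alone, and of the 5 that rose, 1 by the low-fertile pair alone; the filter favours a difference in that direction for such genes. Over the array the filter admitted 8145 probes on the strength of the high-fertile arrays by themselves, but 336 on that of the low-fertile arrays. With only probes well above background on all 4 arrays, 9 of 32 genes were called higher and 2 lower, where 21.6% and 12.4% of all 10588 genes so filtered were, so the order of both counts turned over the array as well. The median difference of the 46 was 0.16, beside 0.01 over all genes, as a description. Without high-fertile pool 1, 1 gene was called higher and 4 lower, without high-fertile pool 2 these counts were 2 and 3, and without low-fertile pool 2 they were 1 and 7. Leaving out 1 pool at a time, 8 of the 11 called genes lost their call at least once, HPGDS without high-fertile pool 2 (limma adjusted p = 0.0554). The 3 that did not, ALOX15, PTGR1 and PTGES3, had all been admitted by the high-fertile pair in which they are high, so no stability is read from them. The plot of differences by list shows each gene.

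Among 11 tested phospholipases A2, which free fatty acids such as arachidonic acid from phospholipids, 2 fell and 0 rose. PLA2G7, the platelet-activating factor acetylhydrolase of plasma, read 24.3 and 30.0 in high-fertile and 17.6 and 13.3 in low-fertile pools at its brightest probe. Neither low-fertile array was well above background there, so that probe was tested through the high-fertile pair alone. It was an estimated 1.66-fold lower in low-fertile pools (95% confidence interval -1.17 to -0.29 in log2, limma adjusted p = 0.0340). The other tested PLA2G7 probe read 30.8 and 17.8 against 17.1 and 13.3 and did not pass at -0.55 (limma adjusted p = 0.201). Under normexp background correction the brightest probe was at -0.04 and lost the call (limma adjusted p = 0.640). PLA2G2D1, a secreted phospholipase, fell by 0.64 on the log2 scale at its brightest probe (limma adjusted p = 0.0254) while another of its probes rose by 0.85 (limma adjusted p = 0.0144), which leaves its direction unsettled. PLA2G2F, also secreted, differed by 0.48 and did not pass (limma adjusted p = 0.0567).

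Of the 3 other lipoxygenases tested, 1 fell and 0 rose. ALOX15, a 15-lipoxygenase, read 47.6 and 32.9 in high-fertile and 17.1 and 14.9 in low-fertile pools, where it was not well above background. It was an estimated 2.33-fold lower in low-fertile pools (95% confidence interval -1.76 to -0.68 in log2, limma adjusted p = 0.0133). It had entered the test through the high-fertile pair alone, and its log2 difference under normexp was -0.45. ALOX12B, a lipoxygenase of the skin barrier, read 170 and 124 against 174 and 176, a difference of 0.36 that did not pass (limma adjusted p = 0.253).

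Among 11 tested genes that convert, break down or export leukotrienes, 1 rose and 1 fell. PTGR1, which inactivates leukotriene B4 by oxidation and also reduces prostaglandins, read 65.2 and 54.5 against 23.0 and 12.8 and fell by 1.71 on the log2 scale at its brightest probe (limma adjusted p = 0.00832), with a difference of -0.67 under normexp. That probe was tested through the high-fertile pair alone, and the other tested probe of PTGR1 differed by -0.45 and did not pass (limma adjusted p = 0.182). ABCC4, a transporter that exports leukotrienes and prostaglandins, read 435 and 434 against 599 and 581 and rose by 0.53 (limma adjusted p = 0.0481). Another ABCC4 probe fell by 1.00 (limma adjusted p = 0.0208), and with the replicate block the brightest probe did not pass (adjusted p = 0.0789), so the direction of ABCC4 is not settled. GGT5, which cleaves leukotriene C4, differed by 0.53 (limma adjusted p = 0.0538) at its brightest probe and by 1.29 at another (limma adjusted p = 0.00630), which the low-fertile pair alone had admitted to the test. Chosen after its values were seen, CYP4F2, an omega-hydroxylase of leukotriene B4, read 55.0 and 105 in high-fertile and 68.4 and 803 in low-fertile pools. It was high in low-fertile pool 2 alone and did not pass at a difference of 1.71 (limma adjusted p = 0.314).

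Of 10 tested genes of prostanoid synthesis and breakdown, 2 rose and 2 fell. PTGES3, a prostaglandin E synthase that is also a co-chaperone of HSP90, read 37.6 and 39.6 against 12.9 and 6.12. It was an estimated 4.09-fold lower in low-fertile pools (95% confidence interval -2.79 to -1.28 in log2, limma adjusted p = 0.00812). HPGDS, the haematopoietic prostaglandin D synthase, read 40.6 and 50.7 against 18.6 and 20.0. It was an estimated 2.22-fold lower (95% confidence interval -1.62 to -0.68 in log2, limma adjusted p = 0.0105). For both genes neither low-fertile array was well above background, so they were tested through the group in which they are high, and under normexp their differences were -0.43 for PTGES3 and -0.40 for HPGDS. PTGDS, the lipocalin-type prostaglandin D synthase known from epididymal fluid, read 14.7 and 25.7 against 45.1 and 34.5 and rose by 1.11 (limma adjusted p = 0.0390), with its other tested probe at 0.06. The PTGDS probe called qualified through the low-fertile pair alone and was at 0.33 under normexp. Its call was lost with the percentile over detected probes (limma adjusted p = 0.0648), with quantile normalization (0.0588) and without high-fertile pool 1 (0.0975), low-fertile pool 1 (0.109) or low-fertile pool 2 (0.0841). AKR1C3, which reduces prostaglandins and steroids, rose by 0.90 (limma adjusted p = 0.0335), or 0.52 under normexp, its other tested probe being at -0.13. Without high-fertile pool 2 AKR1C3 was at 0.66 and not called (limma adjusted p = 0.133), nor was it without low-fertile pool 2 (0.111). PTGES differed by 0.52 and did not pass (limma adjusted p = 0.0769).

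Of 11 tested receptors of prostanoids and other oxylipins, 2 rose and 0 fell, where 9.6% and 16.3% of all tested genes did. The 2 were among the 4 receptors of prostaglandin E2, of which PTGER3 and PTGER4 did not pass. PTGER2 read 25.1 and 36.2 in high-fertile and 71.6 and 53.0 in low-fertile pools and rose by 1.12 (limma adjusted p = 0.0184). PTGER1 read 26.7 and 29.5 against 46.1 and 44.1 and rose by 0.77 (limma adjusted p = 0.0173). PTGER3 had 55.3 and 76.4 against 110 and 86.5, a difference of 0.67 that did not pass (limma adjusted p = 0.0593). PTGER4, named because it completes the 4, read 28.6 and 29.9 against 28.1 and 22.8, a difference of -0.12 (limma adjusted p = 0.560). Under normexp PTGER2 was at 0.51 and PTGER1 at 0.35. PTGER2 lost its call without high-fertile pool 1 (limma adjusted p = 0.0693) or low-fertile pool 1 (0.0574), and PTGER1 without high-fertile pool 1 (0.0908), high-fertile pool 2 (0.0654) or low-fertile pool 2 (0.0585).

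**Figure D3:**
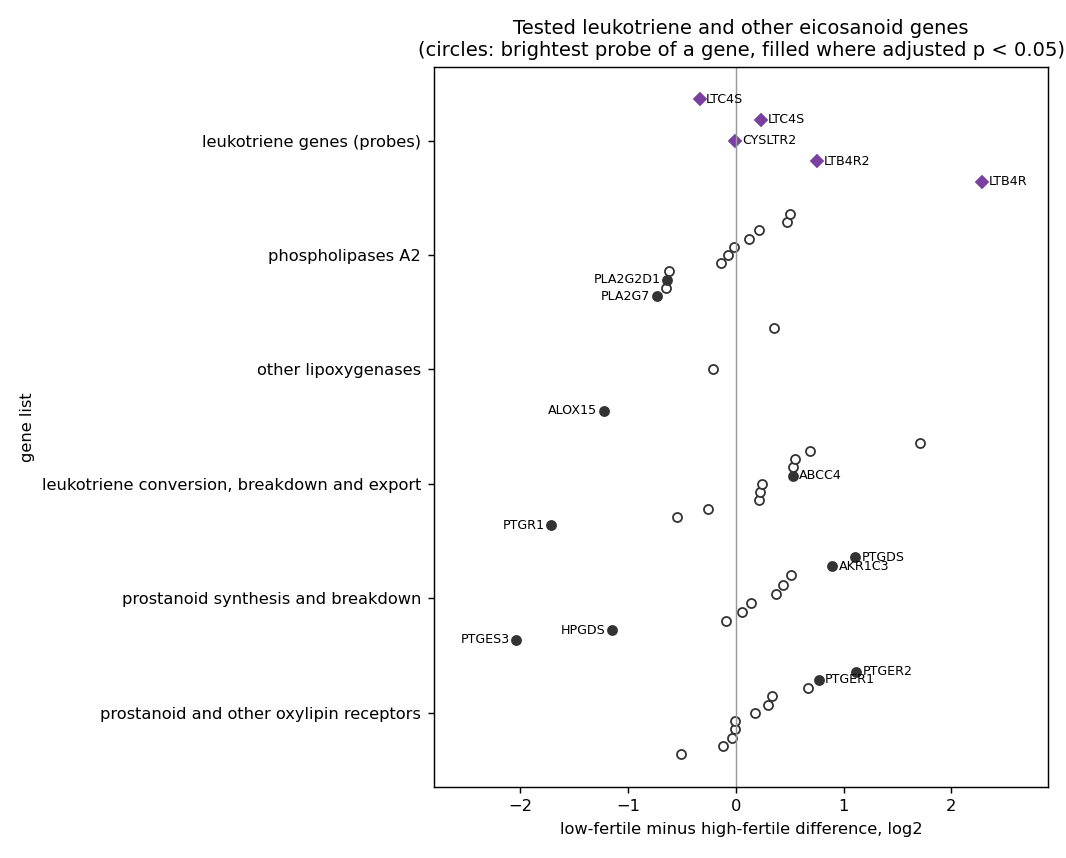
Low-fertile minus high-fertile log2 difference (x axis) of the 5 tested leukotriene probes (diamonds, top row) and of the tested genes of 5 eicosanoid lists (circles, brightest probe, filled where limma's adjusted p was under 0.05). LTB4R, selected for its difference, is at 2.28. The filled circles lie on both sides of zero, 5 higher and 6 lower.

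Markers of white cells, which carry leukotriene receptors, gave signal in part. Of 17 neutrophil and monocyte markers 14, 14, 14 and 7 were well above background in high-fertile pools 1 and 2 and low-fertile pools 1 and 2. Their summed normalized signal was 394 and 360 in high-fertile and 462 and 503 in low-fertile pools. A sum weights each gene by the brightness of its probe, and without its brightest gene, LYZ (lysozyme), this one was 23.6 and 24.8 in high-fertile and 23.3 and 24.7 in low-fertile pools. Of 13 such markers tested, limma called 0 in either direction, where 9.6% of all tested genes were called higher and 16.3% lower. CSF3R, CXCR2, ELANE and S100A12, characteristic of neutrophils, were well above background on all 4 arrays, and MPO and S100A9 on none. CXCR2 differed by 0.44 (limma adjusted p = 0.114), ELANE by 0.41 (0.0837) and CD14 by 0.40 (0.111), each higher in both low-fertile pools without overlap, while CSF3R was at -0.09 and S100A12 at -0.15, neither of them called. For 12 lymphocyte markers the sum was 395 and 410 in high-fertile and 438 and 486 in low-fertile pools, with 10 above the mark on each array. Without PTPRC, its brightest gene, that sum was 204 and 218 in high-fertile and 127 and 137 in low-fertile pools, the opposite order. Of these markers, PTPRC, the pan-leukocyte CD45 gene, rose by 0.78 (limma adjusted p = 0.0160) and CD3D, a T cell receptor subunit, fell by 1.05 (limma adjusted p = 0.0102), while CD3E and CD8A were above the mark on no array. Markers of mast cells, basophils and eosinophils summed to 4.71 and 4.60 against 4.84 and 6.65, with KIT and FCER1A above the mark on no array. Without SIGLEC8, its brightest gene, that sum was 3.135 and 2.937 against 3.136 and 4.291. Of these markers CPA3 read 43.2 in low-fertile pool 2 and at most 7.35 on the other arrays. Epithelial markers summed to 28.7 and 29.5 against 30.6 and 34.3, and red cell markers to 10.2 and 14.1 against 12.1 and 14.0. Without KRT19, its brightest gene, the epithelial sum was 16.7 and 18.2 against 20.1 and 22.7. Without HBA the red cell sum was 6.42 and 7.2 against 7.95 and 9.10. Among these markers HBB, the beta-globin gene, read 20.4 and 29.0 against 54.1 and 54.1 and rose by 1.24 (limma adjusted p = 0.0118), admitted to the test by the low-fertile pair alone. The epithelial sum was higher in both low-fertile pools, as were LTB4R and LTB4R2, with or without KRT19. For mast cells, basophils and eosinophils the full sum was so, but without SIGLEC8 low-fertile pool 1 was level with high-fertile pool 1. Sums for neutrophils and monocytes and for lymphocytes were higher in both low-fertile pools with LYZ and PTPRC counted and not without them. The red cell sum was higher in both low-fertile pools without HBA and not with it. The part of these cells in the receptor values was not tested.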

How the data were processed

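Sperm RNA was labelled with Cy3 and hybridised to 4 bovine arrays of 1 slide. Per the file headers, images were read with Feature Extraction 11.5.1.1 on a Btau_3.1 design; the deposited intensities are background-subtracted. The authors also deposited log2 values after a 75th percentile shift in GeneSpring, used as an alternative. The members, pathway lists and markers were chosen with earlier results of these data known.

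After outlier spots were removed, log2 signals were averaged per probe and shifted by each array's 75th percentile of sample probes. A mark on a share of 0.5 or more of the spots counted for the probe. Probes entered limma 3.58.1 (R 4.3.3) if both arrays of a group marked them well above background (21033 probes) and p was adjusted after Benjamini-Hochberg; an adjusted p under 0.05 was a call. The fit was tested on simulated data. Named pathway genes were, per list, up to 4 called with the largest difference and 1 not called with the smallest p. Of 15 member accessions 14 matched a RefSeq symbol. Same-numbered pools did not deviate together (r = 0.00548 across 21024 probes, which are not independent). Slide and scan could not be fitted as blocks. Tables were handled in Python 3.11.15 (numpy 2.4.6, pandas 2.3.3, scipy 1.17.1).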

Additional observations from a re-analysis of the deposited data

How the results depend on the processing

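LTB4R was higher in low-fertile pools under every setting run, at 1.49 to 2.52, and LTB4R2 at 0.66 to 0.83. Among the members other than LTB4R, 1 probe was called; without a filter on dim probes limma called 0 of 14 (3 at an unadjusted p under 0.05, and 0 of 51282 over the array), the methods' t-test called 0 of 4 (2 unadjusted, and 0 of 21024 over the array), and with 1 pool left out the count was 0 to 1. Leaving out 1 pool also cut the calls over the array, to between 2640 and 4989. For the eicosanoid lists, 11 genes were called, 0 without a filter (11 unadjusted), 0 in the methods' t-test (10 unadjusted) and 5 to 11 with 1 pool left out. Requiring all 4 arrays above background left 3 of the 5 detected member probes, and no filter admitted 15. With that stricter filter the list calls split into 9 higher and 2 lower. With the replicate block 1 member probe was called (LTB4R2, adjusted p = 0.0284) and 10 list genes, ABCC4 being lost; pools share only a number across groups. CYSLTR2 changed sign, to 0.0317 with the percentile over detected probes, 0.0261 with quantile normalization and 0.00662 without spots on bright patches, and ran from -0.21 to 0.21 with 1 pool left out. The LTB4R2-like probe was at -0.00802 with normexp and ran from -0.0293 (low-fertile pool 2 left out) to 0.236 with 1 pool left out. By the median over a gene's tested probes LTC4S was at -0.0488 and ABCC4 at -0.31. Single-gene values kept direction and side of the threshold in 248 instances, lost the call in 54, gained it in 13, moved in 6 and reversed in 9. Dim probes, and 2 pools a group, limit what could be seen.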
